A study of Mus musculus with 8 samples.

Results

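The proteins of the mitochondrial ribosome were followed here through their genes, as read counts from messenger RNA libraries of MB21 cells. Members were the protein-coding mouse genes whose symbol is Mrpl or Mrps followed by a number and at most a single letter, with pseudogenes left out, and 78 of the 55416 gene identifiers in the deposited table met this rule. By symbol, 49 belong to the large subunit (Mrpl) and 29 to the small subunit (Mrps). MB21 is a medulloblastoma cell line, a tumour of the cerebellum, with a mutant ptch genotype, and all 8 libraries come from it. Cells called DS38 received 10 uM DS-1-38, a derivative of benzarone according to the series, for 5 days. Cells called DMSO received the vehicle for 5 days. Each treatment had 4 libraries, and cells grew in suspension in medium with B27 supplement. No label states that the replicate libraries were grown as separate cultures. The p-values therefore rest on the spread among these libraries, part or all of which may be technical.

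Mitochondria translate the few messenger RNAs of their own genome on a ribosome of bacterial descent, and those messages encode core subunits of the respiratory chain and of ATP synthase. The ribosomal RNAs are transcribed from mitochondrial DNA, but every ribosomal protein is made in the cytosol from a nuclear gene and imported. Some of these proteins have a counterpart in bacterial ribosomes, named with a u or b prefix (uL23m, bL34m), and others are found in mitochondria alone, with an m prefix (mL54, mS26). Promoters of many nuclear genes for mitochondria hold sites for the transcription factors NRF1, GABP of the ETS family, and YY1.

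Promoters of members with the largest falls or rises within each subunit by symbol, and of a member that did not pass, are printed here. They can be read beside the values that follow. The sequences are the 120 bases before a start of the gene, 5′ to 3′ on the gene's strand, from the RefSeq promoter table of build GRCm38.p6. Capitals mark a match on either strand to the NRF1 motif GCGCATGC, the ETS motif CCGGAAG or the YY1 motif AAGATGGC. Mrpl55, Mrpl23, Mrpl34, Mrps26 and Mrps16 were lower in DS38 cells, Mrpl10 and Mrps9 were higher, and Mrps18a did not pass the test. Mrps16 has 2 starts in the table, and the other one has no match to the 3 motifs. Mrpl32, also lower, is shown for its run of NRF1 matches and was chosen after its values and sequence were seen.
Mrpl55, chr11:59202366-59202485, plus strand: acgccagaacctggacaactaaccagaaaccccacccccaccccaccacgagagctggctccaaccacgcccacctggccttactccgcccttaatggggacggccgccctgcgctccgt
Mrpl23, chr7:142532912-142533031, plus strand: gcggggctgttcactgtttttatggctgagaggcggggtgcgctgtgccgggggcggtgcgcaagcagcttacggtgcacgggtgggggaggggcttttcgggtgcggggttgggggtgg
Mrpl34, chr8:71464806-71464925, plus strand: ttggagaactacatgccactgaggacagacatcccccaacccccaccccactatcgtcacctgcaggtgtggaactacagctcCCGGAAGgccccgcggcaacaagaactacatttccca
Mrps26, chr2:130563637-130563756, plus strand: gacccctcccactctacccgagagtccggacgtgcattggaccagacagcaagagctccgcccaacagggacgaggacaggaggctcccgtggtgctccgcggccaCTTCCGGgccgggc
Mrps16, chr14:20393491-20393610, minus strand: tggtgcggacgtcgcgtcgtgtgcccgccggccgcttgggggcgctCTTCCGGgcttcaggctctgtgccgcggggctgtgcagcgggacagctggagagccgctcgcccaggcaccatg
Mrpl32, chr13:14613038-14613157, minus strand: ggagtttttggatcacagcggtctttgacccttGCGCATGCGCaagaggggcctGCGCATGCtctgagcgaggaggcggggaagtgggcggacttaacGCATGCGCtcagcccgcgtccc
Mrpl10, chr11:97041462-97041581, plus strand: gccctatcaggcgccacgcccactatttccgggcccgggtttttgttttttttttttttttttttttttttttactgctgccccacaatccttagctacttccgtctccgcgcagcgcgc
Mrps9, chr1:42851113-42851232, plus strand: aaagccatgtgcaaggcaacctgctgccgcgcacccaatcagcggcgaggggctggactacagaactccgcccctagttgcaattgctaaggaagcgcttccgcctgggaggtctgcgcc
Mrps18a, chr17:46110884-46111003, plus strand: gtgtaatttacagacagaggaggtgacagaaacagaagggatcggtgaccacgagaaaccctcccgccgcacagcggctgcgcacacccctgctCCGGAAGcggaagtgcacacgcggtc

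Of the 78 members, 69 were matched to 75 promoters of 300 bases, reaching 250 bases before and 50 after the start. The ETS motif was in 34.7% of the members' promoters, against 17% of 13044 promoters of genes tested and 8.86% of all 32851 promoters in the table. YY1 was in 16.0% of members' promoters, against 4.39% of promoters of genes tested, and NRF1 in 10.7% against 5.14%. Each start counts as a promoter, so a gene with several starts enters more than once. Within the members, the 37 promoters of 31 genes lower in DS38 cells held ETS in 35.1% (13 promoters), YY1 in 10.8% and NRF1 in 5.41%. The 32 promoters of 32 members that did not pass held ETS in 37.5% (12 promoters), YY1 in 25% and NRF1 in 12.5%. These shares are per promoter, and shares per gene were not computed. Only 5 promoters belong to members that were higher, of which 40.0% held NRF1 and 0% ETS or YY1. A match describes these letters alone and is not evidence of a factor bound there.

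Library totals ran from 17142397 to 28476019 counts in DS38 cells and from 18878556 to 25582159 in DMSO cells. The DS38 libraries numbered 1 and 2 differed from those numbered 3 and 4 more than DMSO libraries did among themselves: the chi-square per degree of freedom of their counts was 10.5 to 18.5 across those pairs, against 4.25 to 7.59 between DMSO libraries. No 2 libraries of a group were identical or agreed within sampling noise. All 8 markers of granule neuron progenitors and medulloblastoma were above 1 CPM (counts scaled to a common library total), with a summed level of 1752 to 1807 CPM in DS38 libraries and 1610 to 1654 CPM in DMSO libraries. Of these 8 genes, 2 fell and 5 rose. The summed fibroblast list, led by Pdgfra, was 53.2 to 57.1 CPM in DS38 and 74.1 to 78.7 CPM in DMSO libraries, with 2 of its 6 genes above 1 CPM, 1 called lower and 1 called higher. The summed astrocyte list, led by Slc1a3, was 111 to 114 CPM in DS38 and 119 to 124 CPM in DMSO libraries, with 1 gene called lower and 1 higher, and oligodendrocyte genes summed to 12.8 to 15.0 CPM in DS38 and 12.4 to 15.3 CPM in DMSO libraries. Microglial genes stayed at or under 0.137 CPM, with Cx3cr1 and C1qa at 0, and endothelial genes at or under 1.79 CPM, with Cldn5 at 0. The part of these markers in the results was not tested, and in bulk samples fewer cells of a type and less RNA per cell cannot be told apart.

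Messenger RNAs for mitochondrial ribosomal proteins were mostly lower in DS38 cells, by small amounts. Among 77 tested members, 34 fell (44.2%), 5 rose (6.49%) and the remaining 38 did not reach a Benjamini-Hochberg (BH) adjusted p under 0.05 in the quasi-likelihood test of edgeR. Over all 15133 genes tested, 20.7% fell and 18.8% rose. The members' median log2 fold change (DS38 over DMSO) was -0.12, against -0.01 over all genes tested, and the members ran from -0.55 to 0.24. In 25 members every DS38 library lay below every DMSO library, and in 4 every DS38 library lay above, while 18.9% and 17.2% of all genes tested did so. Scaling by library totals alone, in place of TMM factors, gave 21 falls and 8 rises among the members, with 2171 falls and 3915 rises over all genes, against 3140 falls and 2840 rises with TMM. Without both libraries numbered 1, 21 members fell and 5 rose, with 2717 falls and 2443 rises over all genes.

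**Figure D1:**
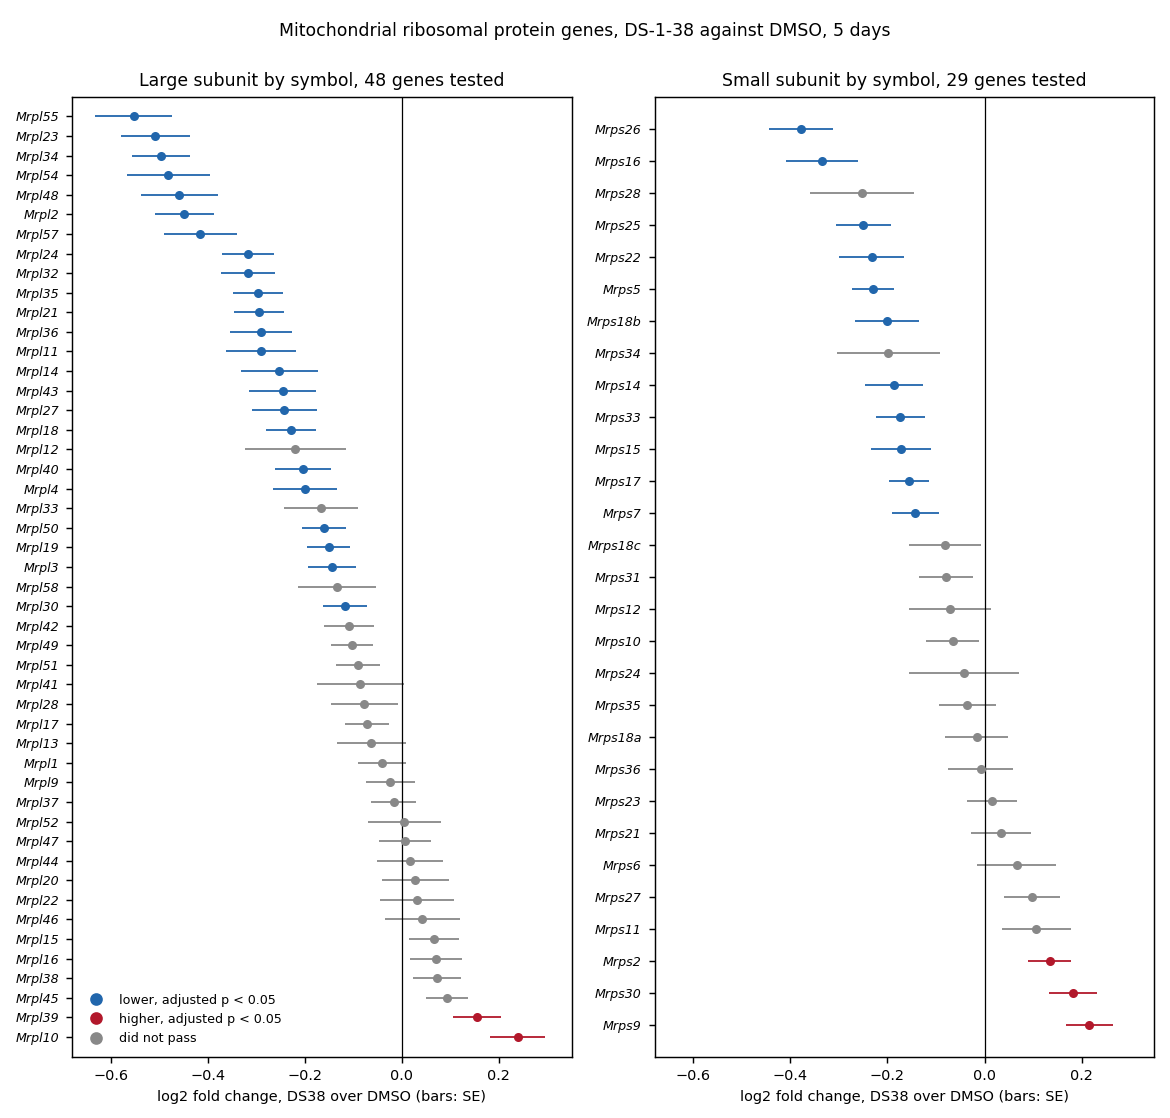
Log2 fold change of each tested member, DS38 over DMSO, with bars for its standard error, in order of size, for the 48 Mrpl genes (left) and the 29 Mrps genes (right). Most points lie left of 0, from -0.55 for Mrpl55 to 0.24 for Mrpl10, and colours mark the 34 members that fell and the 5 that rose.

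The deepest falls were those of Mrpl55, Mrpl23 and Mrpl34, each a protein of the large subunit with a bacterial counterpart. Mrpl55 (bL31m, ENSMUSG00000036860) had 17.8, 18.2, 18.8 and 20.9 CPM in the DS38 libraries, against 28.5, 31.8, 24.9 and 25.2 CPM in the DMSO libraries. The groups did not overlap, and the level was 1.47-fold lower in DS38 cells (log2 fold change -0.55, SE 0.079, edgeR BH-adjusted p = 3.18e-05, n = 4 each). Mrpl23 encodes uL23m, a protein near the exit of the tunnel through which new chains leave the ribosome. Its libraries held 18.6, 21.5, 19.9 and 21.4 CPM in DS38 cells, against 30.4, 30.7, 24.9 and 29.7 CPM in DMSO cells (log2 fold change -0.51, SE 0.072, edgeR BH-adjusted p = 2.18e-05). The third DMSO library was lower than the other DMSO libraries but still above every DS38 library. Mrpl34 (bL34m) was the most even of the 3, at 19.6, 19.996, 19.3 and 20.6 CPM in DS38 cells, against 30.1, 28.4, 26.6 and 27.02 CPM in DMSO cells (log2 fold change -0.50, SE 0.059, edgeR BH-adjusted p = 3.41e-06).

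Other large-subunit genes fell by less. Mrpl2, which encodes uL2m beside the peptidyl transferase centre, held 37.2, 38.2, 37.6 and 43.6 CPM in DS38 libraries, against 52.4, 59.1, 52.0 and 49.8 CPM in DMSO libraries. It fell by 0.45 on the log2 scale (SE 0.060, edgeR BH-adjusted p = 1.59e-05), with no overlap although the fourth DS38 library stood above its own group. Mrpl24 (uL24m, beside the tunnel exit) averaged 37.3 ± 1.54 CPM in DS38 cells and 46.3 ± 3.07 CPM in DMSO cells (SD, n = 4 each) and had a log2 fold change of -0.32, and 26.3% of its exon bases lie opposite Rrnad1. Mrpl35 (bL35m) had a log2 fold change of -0.30, at 47.1 ± 2.58 CPM in DS38 and 57.8 ± 3.002 CPM in DMSO cells. The fall of Mrpl3 (uL3m) was smaller, at a log2 fold change of -0.14 (edgeR BH-adjusted p = 0.0281), its groups overlapped, and it lost the call in 5 of the 8 fits that left out 1 library, with edgeR BH-adjusted p-values up to 0.101.

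The stalk recruits translation factors, and of 3 genes of this region 1 rose, 1 fell and 1 did not pass. Mrpl10 (uL10m, the stalk's base) rose the most of all members, with 35.1, 34.4, 33.4 and 37.1 CPM in DS38 libraries, against 29.8, 27.7, 29.1 and 32.1 CPM in DMSO libraries. Its groups did not overlap (log2 fold change 0.24, SE 0.056, edgeR BH-adjusted p = 0.00255), and 14.1% of its annotated exon bases lie opposite another gene. Mrpl12 (bL12m, the mobile arm of the stalk) did not pass, with a log2 fold change of -0.22 (95% interval -0.42 to -0.02, edgeR BH-adjusted p = 0.133). Its 4 DS38 libraries, at 73.7, 81.5, 76.2 and 88.1 CPM, overlapped the 4 DMSO libraries, at 109, 97.05, 84.7 and 79.9 CPM. In the annotation 13.1% of the exon bases of Mrpl12 lie opposite Gm16755. Without the DMSO library numbered 4, Mrpl12 passed at a log2 fold change of -0.29 (edgeR BH-adjusted p = 0.0308). With all libraries it passed in the Wald test of DESeq2 (adjusted p = 0.0375) and with no filter on low counts (edgeR BH-adjusted p = 0.000669). Replicate numbers as a block with the length trend removed also gave a call (edgeR BH-adjusted p = 0.0425). Mrpl11 (uL11m, next to the stalk's base) fell by 0.29 on the log2 scale (edgeR BH-adjusted p = 0.00637), although 1 DS38 library reached the lowest DMSO values.

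Among proteins of the large subunit that bacteria lack, Mrpl54 (mL54) and Mrpl48 (mL48) fell furthest. Mrpl54 held 14.5, 16.9, 17.1 and 19.7 CPM in DS38 libraries, against 25.6, 25.3, 22.3 and 21.5 CPM in DMSO libraries (log2 fold change -0.48, SE 0.086, edgeR BH-adjusted p = 0.000278). Mrpl48, part of the central protuberance, held 18.4, 17.5, 15.2 and 19.0 CPM in DS38 and 26.7, 25.2, 21.7 and 22.8 CPM in DMSO libraries (log2 fold change -0.46). Neither gene's groups overlapped. For Mrpl48, 8.68% of exon bases lie opposite Rab6a, which fell too (log2 fold change -0.15, edgeR BH-adjusted p = 0.00789). Mrpl39 (mL39) rose by 0.16 (edgeR BH-adjusted p = 0.0181) with overlapping groups, and the call was lost without the DMSO library numbered 4 (edgeR BH-adjusted p = 0.0725). Mrpl37 (mL37), Mrpl44 (mL44) and Mrpl58 did not pass. Mrpl58 encodes mL62, a peptidyl-tRNA hydrolase built into the ribosome, and its log2 fold change was -0.13 (95% interval -0.29 to 0.02). Without the DS38 library numbered 4 it was -0.20 and passed (edgeR BH-adjusted p = 0.0318). The log2 fold changes of Mrpl37 and Mrpl44 were -0.02 (95% interval -0.11 to 0.07) and 0.02 (95% interval -0.12 to 0.15). For Mrpl44, 7.66% of exon bases lie opposite Wdfy1.

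In the small subunit the largest fall was that of Mrps26 (mS26), found in mitochondria alone. Mrps26 held 23.1, 22.8, 21.6 and 24.0 CPM in DS38 libraries, against 32.5, 31.4, 26.9 and 27.9 CPM in DMSO libraries (log2 fold change -0.38, SE 0.066, edgeR BH-adjusted p = 0.000185). Mrps16 (bS16m) held 21.5, 24.6, 23.1 and 27.6 CPM in DS38 libraries, against 33.7, 30.6, 28.4 and 29.1 CPM in DMSO libraries (log2 fold change -0.33, SE 0.074, edgeR BH-adjusted p = 0.00167). Both had every DS38 library below every DMSO library. Mrps5 (uS5m, at the channel where messenger RNA enters) was a small change measured tightly, with 75.4, 78.1, 76.9 and 76.7 CPM in DS38 and 88.1, 96.6, 89.2 and 86.1 CPM in DMSO libraries (log2 fold change -0.23, SE 0.043, edgeR BH-adjusted p = 0.000362).

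**Figure D2:**
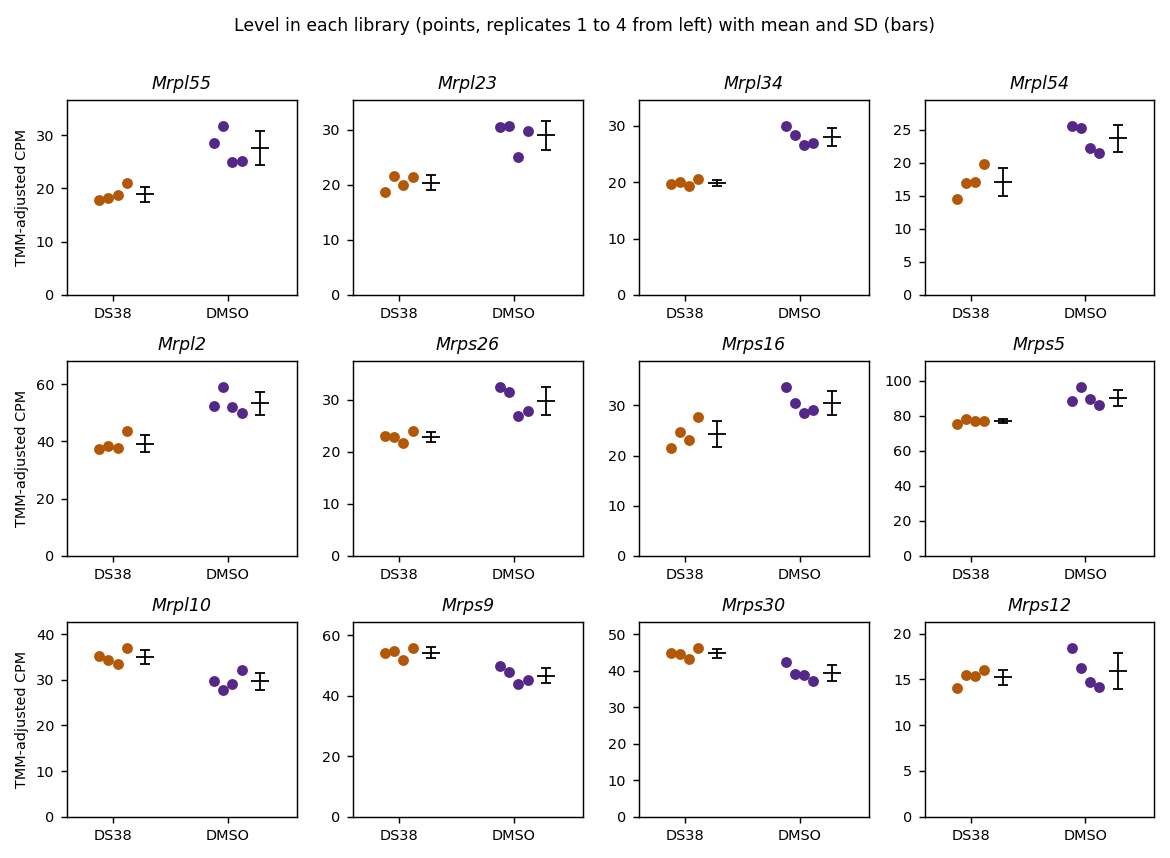
TMM-adjusted CPM in each of the 8 libraries for 12 members, with DS38 left of DMSO and the mean and SD beside each group. Mrpl55 to Mrps5 lie lower in DS38, Mrpl10, Mrps9 and Mrps30 lie higher, and the groups of Mrps12 overlap.

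Other proteins of the small subunit followed with smaller falls. Mrps22 (mS22) averaged 46.1 ± 4.71 CPM in DS38 cells and 54.0 ± 3.73 CPM in DMSO cells (SD, n = 4 each), with overlapping groups and a log2 fold change of -0.23 (edgeR BH-adjusted p = 0.0129). Mrps25 (mS25) had a log2 fold change of -0.25, Mrps33 (mS33) of -0.17 and Mrps17 (uS17m) of -0.16, each with no overlap between groups. With library totals alone, Mrps33 and Mrps17 lost the call (edgeR BH-adjusted p = 0.0825 and 0.0763). Without both libraries numbered 1, Mrps22, Mrps33 and Mrps17 lost it (edgeR BH-adjusted p = 0.0802, 0.106 and 0.0578). For Mrps25, 69.8% of annotated exon bases lie opposite Nr2c2, and the strand setting of the counting is not given in the sources used here, so that value may mix both genes. Mrps14 (uS14m, log2 fold change -0.19) and Mrps7 (uS7m, -0.14), proteins of the head of the subunit, passed over all libraries with edgeR BH-adjusted p = 0.0193 and 0.0278. Each lost the call in 5 of the 8 fits that left out 1 library, with edgeR BH-adjusted p-values up to 0.0680 for Mrps14 and 0.0928 for Mrps7. Both also lost it with library totals alone and without both libraries numbered 1. For Mrps7, 11.9% of exon bases lie opposite Gga3 or Mif4gd.

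A few small-subunit symbols rose. Mrps9 (uS9m), whose bacterial counterpart reaches the transfer RNA in the P site, held 54.2, 54.9, 51.9 and 55.9 CPM in DS38 libraries, against 49.8, 47.7, 43.9 and 45.1 CPM in DMSO libraries (log2 fold change 0.22, SE 0.048, edgeR BH-adjusted p = 0.00170). Mrps30 held 44.9, 44.5, 43.4 and 46.4 CPM in DS38 libraries, against 42.5, 39.2, 38.9 and 37.1 CPM in DMSO libraries (log2 fold change 0.18, SE 0.050, edgeR BH-adjusted p = 0.00730). Despite its symbol, its protein, mL65, sits in the large subunit. With replicate numbers as a block and the length trend removed, Mrps30 lost the call (log2 fold change 0.13, edgeR BH-adjusted p = 0.0735). In the annotation 9.35% of its exon bases lie opposite another gene. Mrps2 (uS2m) rose by 0.13 (edgeR BH-adjusted p = 0.0222), a call lost without the DMSO library numbered 2 (edgeR BH-adjusted p = 0.0733) or 4 (0.0554). With all libraries, the call of Mrps2 was lost with no filter on low counts (edgeR BH-adjusted p = 0.0877). It was also lost with the block and the length trend removed (edgeR BH-adjusted p = 0.0552). In all 8 fits that left out a library, 26 of the 34 falls and 3 of the 5 rises (Mrpl10, Mrps9 and Mrps30) passed again.

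Mrps12 and 2 of the 3 Mrps18 genes did not pass. Mrps12 (uS12m), which monitors codon pairing, held 14.05, 15.4, 15.4 and 16.0 CPM in DS38 libraries, against 18.5, 16.3, 14.7 and 14.12 CPM in DMSO libraries, and its log2 fold change was -0.07 (95% interval -0.24 to 0.09). The 3 Mrps18 genes encode relatives of bacterial S18 that occupy different places. Mrps18b (mS40) fell by 0.20 (edgeR BH-adjusted p = 0.0223), at 17.4 ± 0.733 CPM in DS38 cells and 19.96 ± 1.252 CPM in DMSO cells (SD, n = 4 each). That call was lost without the DMSO library numbered 1 (edgeR BH-adjusted p = 0.0637) or 2 (0.0748) or the DS38 library numbered 3 (0.0714), and 30.5% of the gene's exon bases lie opposite another gene. Mrps18c (bS18m), which shares 23.2% of its exon bases with a gene on the same strand, had a log2 fold change of -0.08 (95% interval -0.23 to 0.07) and Mrps18a (mL66, in the large subunit) of -0.02 (95% interval -0.14 to 0.11). Whether the 3 differ from one another was not tested.

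Mrps27 (mS27, log2 fold change 0.10), Mrps34 (mS34, -0.20) and Mrps28 (bS1m, -0.25) did not pass. Mrps28 passed without the DMSO library numbered 4 (log2 fold change -0.33, edgeR BH-adjusted p = 0.0202) and without the DS38 library numbered 4 (-0.30, edgeR BH-adjusted p = 0.0371). It also passed with no filter on low counts (edgeR BH-adjusted p = 0.0246), and Mrps27 with library totals alone (0.16, edgeR BH-adjusted p = 0.0332). For Mrps27, 24.2% of exon bases lie opposite another gene. For Mrps34, 77.8% of exon bases are shared with Nme3 or Mapk8ip3. Mrps36, once counted as a small-subunit protein and now known as a part of the oxoglutarate dehydrogenase complex, had a log2 fold change of -0.01 (95% interval -0.14 to 0.12). Mrpl53 (mL53) had 0 counts in every library, which allows up to 3 counts, or 0.175 CPM in the shallowest and 0.105 CPM in the deepest library, counting error only. In the annotation 88.0% of its exon bases are shared, with Gm42688 on the same strand or Ccdc142os on the other, and Ccdc142os had 276 counts in all.

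Falls outnumbered rises in both subunits, and the share of falls and the median were somewhat further down in the large one, a difference that was not tested. Falls numbered 23 (47.9%) and rises 2 (4.17%) among the 48 tested Mrpl genes, and 23 did not pass, with a median log2 fold change of -0.14. Among the 29 Mrps genes there were 11 falls (37.9%) and 3 rises (10.3%), and 15 did not pass, with a median of -0.08. Sorting by where the protein sits moves Mrps18a and Mrps30 to the large subunit and leaves out Mrps36. The large subunit then had 23 falls and 3 rises among 50 genes, with a median of -0.13, and the small subunit 11 falls and 2 rises among 26, with a median of -0.11. The difference of the medians, large minus small, was -0.06 by symbol and -0.01 by place. Without both libraries numbered 1, the small-subunit median was 0.00 with 4 falls. The library at the low end of both subunits was DS38 number 1, with a median deviation from the DMSO mean of -0.23 for Mrpl and -0.17 for Mrps genes, and DS38 number 4 lay at -0.04 and -0.02.

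Summed over genes as counts per length, the ratio of Mrpl to Mrps genes nonetheless stood lower in every DS38 library. The ratio of summed TPM (counts per length, scaled to a common total), Mrpl over Mrps, was 2.09, 2.05, 2.03 and 2.10 in the DS38 libraries, against 2.199, 2.199, 2.201 and 2.233 in the DMSO libraries. The groups did not overlap, with means of 2.07 ± 0.036 in DS38 and 2.21 ± 0.017 in DMSO cells (SD, n = 4 each) and a difference of -0.14. The sums themselves overlapped between groups. Mrpl genes summed to 3043 to 3367 TPM in DS38 and 3185 to 3488 TPM in DMSO libraries. Mrps genes summed to 1499 to 1602 TPM in DS38 and 1426 to 1586 TPM in DMSO libraries. Genes with a high level per length weigh most in such sums. By place of the protein the ratio was 2.22 to 2.29 in DS38 and 2.38 to 2.43 in DMSO libraries. In summed CPM, which long and short genes enter without correction, the ratio was 1.87 to 1.90 in DS38 and 1.926 to 1.958 in DMSO libraries. All members together took 0.298% to 0.327% of counts in DS38 libraries and 0.306% to 0.335% in DMSO libraries, which overlap. TPM differs from TMM-adjusted CPM by a shift of 0.11 on the log2 scale of DS38 over DMSO, which leaves ratios within a library as they are.

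**Figure D3:**
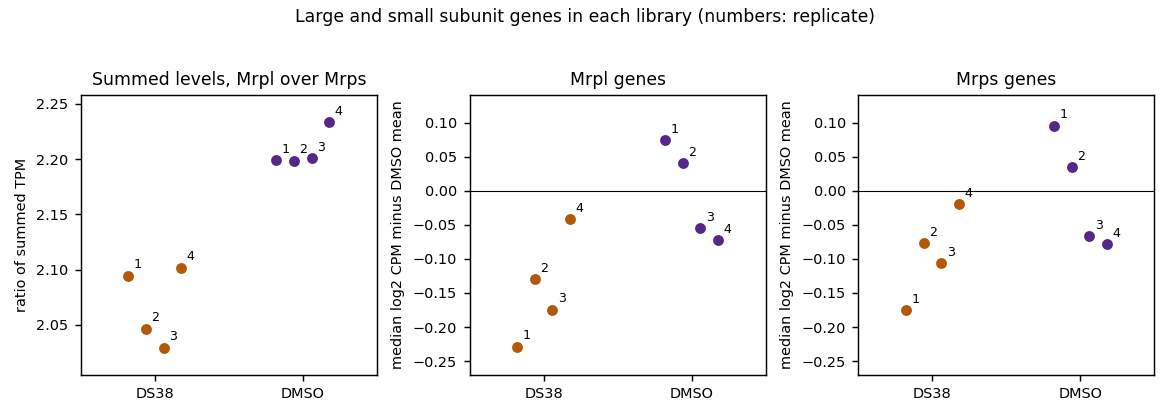
Left, ratio of summed TPM of Mrpl over Mrps genes in each library (the axis does not start at 0). Middle and right, each library's median deviation of log2 CPM from the DMSO mean over Mrpl and over Mrps genes. The ratio is 2.03 to 2.10 in DS38 and 2.199 to 2.233 in DMSO libraries, while the medians of DS38 number 4 lie among DMSO values.

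Levels per length spread over a wide range within each subunit. In RPKM (TMM-adjusted CPM per kilobase of the deposited length), Mrpl genes ran from 2.55 to 56.3 with a median of 16.8, and Mrps genes from 4.02 to 53.2 with a median of 12.6. Mrpl12 (56.3 RPKM) and Mrpl28 (bL28m, 41.4) were highest in the large subunit, and Mrps21 (bS21m, 53.2) and Mrps23 (mS23, 33.7) in the small. Mrpl48 (2.55 RPKM), Mrpl33 (bL33m, 2.59), Mrps34 (4.02) and Mrps10 (uS10m, 4.13) were lowest. Of these 8 genes, Mrpl48 alone passed in the fit behind the calls above. Mrpl12 passed in other fits, as above, and Mrpl33 without the DMSO library numbered 3 (log2 fold change -0.22, edgeR BH-adjusted p = 0.0283). With all libraries and the length trend removed, Mrpl33 fell by 0.23 (edgeR BH-adjusted p = 0.0171) and Mrps21 rose by 0.18 (edgeR BH-adjusted p = 0.0266). The deposited length merges all annotated exons, so a gene with long rare transcripts has its level understated. Within a group, the median coefficient of variation of the tested members was 5.87% over DS38 and 6.41% over DMSO libraries.

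Members are short genes, and length went with fold change over all genes. Across the 15133 genes tested, Spearman's rho of log2 fold change on length was 0.22, so shorter genes were on the whole lower in DS38 cells. Across the 77 members it was 0.08, with 0.13 over Mrpl and -0.05 over Mrps genes. Genes share their libraries and are not independent replicates. The median length was 2533 bases over the members, against 3975 over all genes tested. Split at each subunit's median length, the median log2 fold change was -0.21 in shorter and -0.11 in longer Mrpl genes. It was -0.08 in both shorter and longer Mrps genes. With the length trend removed in each library, the median was -0.13 over the members, against -0.03 over all genes. It was then -0.15 over Mrpl and -0.10 over Mrps genes, and 35 members fell and 6 rose. Over all genes 3779 then fell and 2511 rose, against 3140 and 2840 with the trend left in. TPM does not remove this trend, and the ratio of summed TPM was not recomputed without it.

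**Figure D4:**
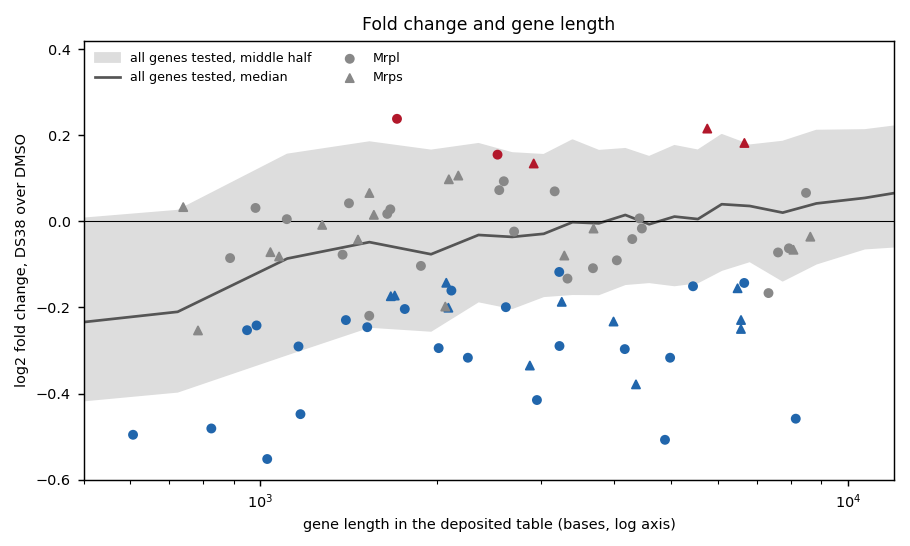
Log2 fold change (DS38 over DMSO) of each tested member against its deposited length on a log axis, with circles for Mrpl and triangles for Mrps genes, blue for falls, red for rises and grey for neither. The line and band give the median and the middle part, between the quartiles, of all genes tested, which climb with length, while the members' rho is 0.08.

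Members whose protein has a bacterial counterpart, a split made after values were seen, gave 23 falls and 3 rises among 46 genes (median log2 fold change -0.15), and those of proteins found in mitochondria alone gave 11 falls and 2 rises among 30 (median -0.10). In the large subunit by place, bacterial counterparts had 17 falls and 1 rise among 30, and the others 6 falls and 2 rises among 20. In the small subunit the shares lay the other way, with 6 falls and 2 rises among 16 bacterial counterparts and 5 falls and 0 rises among 10 others. Many members start within 1000 bases of a protein-coding gene on the other strand, and 33 had such a neighbour. These 33 had 17 falls and 2 rises, and the 44 tested members without one had 17 falls and 3 rises. Of the 30 neighbours tested, 6 fell (20%, against 20.7% of all genes tested) and 11 rose (36.7%, against 18.8%). Among pairs whose member fell, the neighbour rose in 4, fell in 3 and did not pass in 10. Mrpl2 is an example, whose neighbour Klc4 had a log2 fold change of 0.19 (edgeR BH-adjusted p = 0.0478). Another is Mrps18b, beside Ppp1r10 at 0.28 (edgeR BH-adjusted p = 3.56e-05), and in Mrpl54 and its neighbour Apba3 both fell, Apba3 by 0.28. Mrpl46 and Mrps11 face each other, and neither passed. These pairs were picked as examples with their values known.

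Of the mitochondrial ribosome's subunits without an Mrp symbol, 5 were measured. Chchd1 fell, at 48.5 ± 3.40 CPM in DS38 cells and 65.2 ± 4.75 CPM in DMSO cells (SD, n = 4 each), a log2 fold change of -0.43 with SE 0.058 (edgeR BH-adjusted p = 1.84e-05). Dap3, a GTP-binding protein of the small subunit, fell by 0.21 (edgeR BH-adjusted p = 0.000294), at 80.6 ± 0.990 CPM in DS38 and 93.4 ± 2.54 CPM in DMSO cells. Ptcd3, a pentatricopeptide protein where messenger RNA enters, rose by 0.21 (edgeR BH-adjusted p = 0.000327), at 181 ± 6.37 CPM in DS38 and 156 ± 3.91 CPM in DMSO cells. Aurkaip1 (log2 fold change -0.14, edgeR BH-adjusted p = 0.120) and Gadd45gip1 (-0.39, edgeR BH-adjusted p = 0.0756) did not pass. Leaving out 1 library brought both past the threshold, Aurkaip1 without DMSO number 4 (edgeR BH-adjusted p = 0.0472) and Gadd45gip1, at 2.997 CPM in DS38 and 3.92 CPM in DMSO cells, without DS38 number 1 (edgeR BH-adjusted p = 0.0263).

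Genes that build the mitochondrial ribosome were mostly on the low side in DS38 cells, and few genes that work on it or beside it passed the test. Among 34 tested assembly genes there were 15 falls (44.1%) and 3 rises (8.82%), and 16 did not pass (median log2 fold change -0.16). The shares over all genes tested were 20.7% falls and 18.8% rises. Mtg1, a GTPase of large-subunit assembly, had a log2 fold change of -0.39 (edgeR BH-adjusted p = 0.00124), and Mpv17l2, a membrane protein tied to assembly, rose by 0.35 (edgeR BH-adjusted p = 0.000626). Mettl5 had a log2 fold change of -0.48, but its protein is known as a methyltransferase of cytosolic ribosomal RNA, so it does not do what the list is named for. Without Mettl5, a step added after seeing the data, the list had 14 falls (42.4%) and 3 rises (9.09%) among 33. Translation factors gave 1 fall (6.25%) and 0 rises among 16, and 15 did not pass (median -0.03). The 1 fall was that of Oxa1l, which inserts new chains into the inner membrane (log2 fold change -0.24, edgeR BH-adjusted p = 0.000121). Mtif2 (initiation, -0.09) and Taco1 (activation of Cox1 translation, -0.16) did not pass. Mtif2 passed without the DMSO library numbered 4 (edgeR BH-adjusted p = 0.0464) and with the length trend removed (edgeR BH-adjusted p = 0.0453). Genes of mitochondrial transcription and DNA upkeep gave 2 falls (14.3%) and 1 rise (7.14%) among 14, and 11 did not pass (median -0.06). Polg, the mitochondrial DNA polymerase, fell by 0.26, Mterf1b, at 2.29 CPM in DS38 and 3.07 CPM in DMSO cells, fell by 0.42, Mterf2 rose by 0.29, and Tfam (-0.05) and Polrmt (-0.01), the transcription factor and polymerase, did not pass. Mterf1b lost its call in 5 of the 8 fits that left out 1 library, each DS38 library and the DMSO library numbered 4 (edgeR BH-adjusted p from 0.0504 to 0.0675), and in the Wald test of DESeq2 (adjusted p = 0.0800), with no filter (0.0735) and with library totals alone (0.0587).

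Of the transcripts that the mitochondrial ribosome is built around or reads, both ribosomal RNAs and 6 messenger RNAs rose in DS38 cells. mt-Rnr2, the large ribosomal RNA, averaged 1399 ± 49.0 CPM in DS38 cells and 862 ± 88.5 CPM in DMSO cells (SD, n = 4 each), a log2 fold change of 0.70 with SE 0.062 (edgeR BH-adjusted p = 5.09e-07). mt-Rnr1, the small one, averaged 258 ± 34.0 CPM in DS38 cells and 202 ± 13.4 CPM in DMSO cells (log2 fold change 0.36, SE 0.092, edgeR BH-adjusted p = 0.0143). Libraries of messenger RNA capture ribosomal RNA only in part, so these values are not its cellular level. The 13 mitochondrially encoded messenger RNAs gave 6 rises (46.2%, against 18.8% of all genes tested) and 0 falls, and 7 did not pass (median log2 fold change 0.33). The smallest p were those of mt-Nd1, mt-Nd2 and mt-Cytb.

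Cytosolic ribosomal protein genes are given for comparison, beside 20.7% falls and 18.8% rises over all genes tested. The cytosolic list gave 61 falls (74.4%) and 0 rises among 82 tested, and 21 did not pass (median log2 fold change -0.26). Its smallest p were those of Rpl5 (-0.47), Rpl10a (-0.41) and Rpl4 (-0.38). Its median deposited length was 1776 bases, shorter than that of the Mrp genes. Nuclear genes for respiratory chain subunits gave 32 falls (40.0%) and 2 rises (2.5%) among 80, and 46 did not pass (median -0.15). The falls included Atp5b (-0.34) and Ndufa6 (-0.47). Cox6a2, at 0.204 ± 0.118 CPM in DS38 cells and 4.07 ± 0.454 CPM in DMSO cells, had a log2 fold change of -4.17. Whether these lists differ from the Mrp genes was not tested, since they share all 8 libraries.

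**Figure D5:**
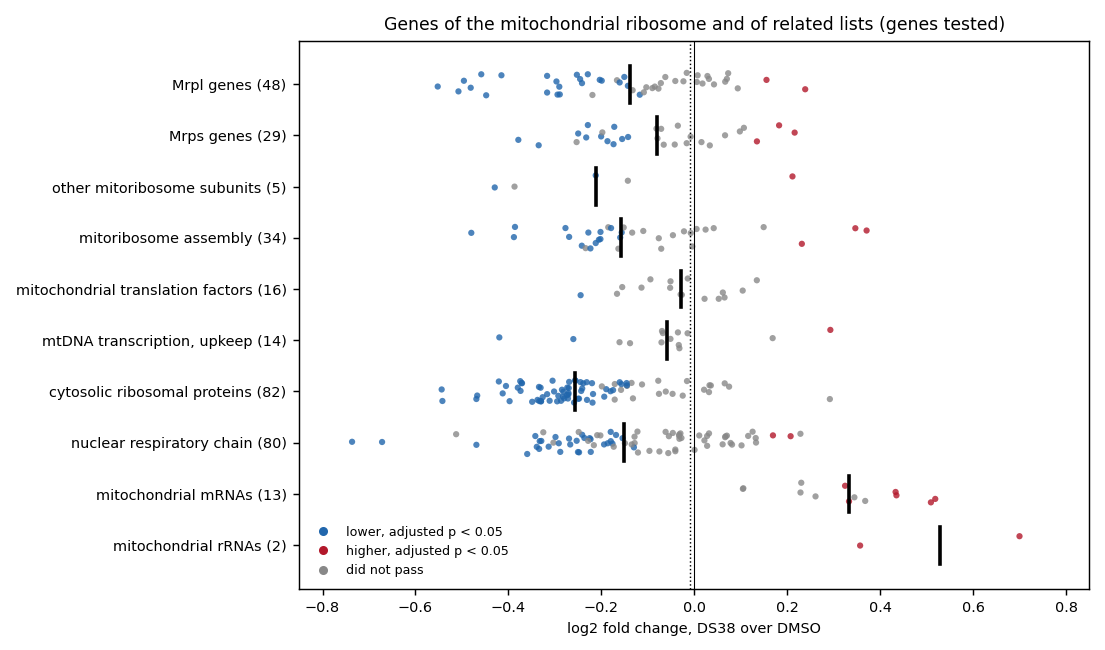
Log2 fold change, DS38 over DMSO, of each tested gene in the Mrp groups and related lists, with a bar at each median, a dotted line at the median of all genes and colours for falls, rises and neither. 1 gene, Cox6a2 at -4.17, lies left of the axis. Medians run from -0.26 for cytosolic ribosomal proteins to 0.33 for mitochondrial messenger RNAs and 0.53 for the 2 mitochondrial ribosomal RNAs.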

How the data were processed

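Messenger RNA was sequenced in 8 MB21 libraries, 4 DS38 and 4 DMSO, grouped by GEO's labels. The deposited values are whole-number counts per gene, not normalized, with each gene's length in bases, per the file headers. The builds GRCm39 and GRCh38.p13 and the tools edgeR, R 4.1.0, featureCounts, Subread 2.0.3 and STAR 2.7.9a stand in the submitters' processing notes. Not given in the sources used here were the role of the human build, the annotation release, the strand setting and the treatment of reads matching several places. Symbols, biotypes, shared exon bases and neighbouring starts came from GENCODE vM21 on the older build GRCm38, which matched 52083 identifiers. Promoter coordinates are those of GRCm38.p6.

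The robust quasi-likelihood test of edgeR 4.0.16 (R 4.3.3) compared DS38 with DMSO libraries, using TMM factors of 0.9753 to 1.032 and filterByExpr at its minimum of 10 counts. Benjamini-Hochberg adjustment ran over 15133 genes, with a threshold of 0.05. CPM were TMM-adjusted, except in floors. Standard errors are the log2 fold change over the square root of F. The script was first tested on simulated counts. No label states that the replicate numbers pair the libraries, so no block entered the model.

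Members and lists were chosen with earlier results of these data known. Named genes were a set chosen regardless of value, the members of each subunit with the smallest p (up to 6 per direction), the 3 largest changes, the highest and lowest levels and untested members, and up to 3 genes of smallest p per other list, 67 tested in all. Mrpl32, Mrpl54, Mrpl46, Mrps11, Klc4, Ppp1r10 and Apba3 lie outside this rule, picked once their values were known. A planned comparison of Mrps18 protein sequences was not run. Alternatives were DESeq2 1.42.0 size factors and its Wald test, limma 3.58.1 voom, library totals, other filters, a length offset, the replicate block and leaving out libraries.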

Additional observations from a re-analysis of the deposited data

Results flagged for a closer look

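A library was marked where its gap to the nearest of the other 3, divided by the range of its group of 4, passed Dixon's 95% critical value. Of 140 groups of 4 examined (named genes and sums), 5 passed, and chance marks about 1 in 20 groups. Mrpl2 in DS38 cells was marked with a gap of 0.838 of the range, for the fourth library at 43.6 CPM against 37.2 to 38.2 CPM in the others. Mrps14 in DS38 cells was marked at 0.859 for the same library, at 57.1 CPM against 48.4 to 49.6 CPM. Mrps21 in DS38 cells was marked at 0.866 for the first library, at 36.2 CPM against 40.7 to 41.4 CPM. Mrpl23 in DMSO cells was marked at 0.830 for the third library, at 24.9 CPM against 29.7 to 30.7 CPM. The ratio of summed TPM, Mrpl over Mrps, was marked in DMSO cells at 0.926 for the fourth library, at 2.233 against 2.199 to 2.201.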

How the results depend on the processing

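With library totals alone, 21 members fell and 8 rose, with 4 rises among Mrpl and 5 falls among Mrps genes, and the cause was not tested. Without both libraries numbered 1, which leaves fewer samples, 21 members fell, 4 of them Mrps genes. Over all genes 2717 then fell, against 3140 with all libraries. The large-subunit median was -0.08, the small-subunit median was 0.00 (0.0014, of the other sign) and the difference of the medians was -0.083. By place of the protein that difference was -0.013. Leaving out members sharing over 5% of exon bases, an alternative chosen after seeing the data that tests fewer genes, gave 3 rises in all, 15 falls and 1 rise among Mrpl genes and a difference of -0.034. The ratio of summed CPM differed by -0.062.

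Over fits without 1 library, 26 to 38 members fell and 3 to 5 rose, with 19 to 26 falls and 1 to 2 rises among Mrpl genes and 7 to 12 falls and 2 to 3 rises among Mrps genes. All genes called ran from 4939 to 5912. The medians ran from -0.17 to -0.10 (large) and -0.12 to -0.03 (small), their difference from -0.072 to -0.036, and the TPM ratio's difference from -0.15 to -0.13. Mrps falls numbered 7 without DMSO number 1 and without DS38 number 3, and rises over all members numbered 3 without DMSO number 4. No named gene changed sign with a call under any alternative run. Same-numbered libraries deviated together with a correlation over 0.1 in 1 of 4 pairs, the libraries numbered 1 (0.33). So few pairs cannot decide whether the numbers pair the libraries. With the replicate block, 30 members fell and 5 rose, with 3048 falls and 2546 rises over all genes. With the block and the length trend removed, 36 members fell and 4 rose, with 3699 falls and 2411 rises over all genes. Depth, as low as 17142397 counts, limits genes of a few CPM most. Mrpl53 shares 88.0% of its exon bases with other genes, and the cause of its 0 counts was not tested.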
